A study of Mus musculus with 6 samples.

Results

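MHC class I molecules carry peptides cut from the proteins of a cell to its surface, where CD8 T cells and natural killer cells read them. The proteasome cuts the peptides, the TAP transporter moves them into the endoplasmic reticulum, tapasin helps to load them, and each loaded molecule is a heavy chain paired with the light chain beta-2-microglobulin. In cells exposed to interferon, the catalytic subunits Psmb8, Psmb9 and Psmb10 replace their constitutive counterparts Psmb5, Psmb6 and Psmb7, and the transactivator Nlrc5 drives the promoters of class I genes through a conserved array of promoter boxes.

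In all, 10 genes of this pathway were followed, chosen by name: the classical heavy chains H2-K1 and H2-D1, the light chain B2m, the transporter subunits Tap1 and Tap2, tapasin (Tapbp), the immunoproteasome subunits Psmb8, Psmb9 and Psmb10, and Nlrc5. All 10 were among the 25078 genes of the deposited tables. The libraries came from Hepa1-6, an established mouse hepatoma line from the C57/L strain, after ribosomal RNA depletion. One library was of untreated parental cells (wt), 2 were of cells transduced with a lentiviral scramble vector (scr 25-2 and scr 50-1) and 3 of cells transduced with a midnolin shRNA vector (knockdown 25-3, 50-2 and 50-5, which the sample titles call KO). The scr and knockdown cells were all selected with puromycin. Midnolin is a protein with a ubiquitin-like domain that is known to bring nuclear proteins to the proteasome.

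The study describes the knockdown and scr cells as clones grown from single cells, and the labels do not say whether the libraries of a group came from separate clones. The study names fewer clones as sequenced than the labels have libraries, so libraries of a group may share a clone, and the tests measure the spread between these libraries. The meaning of the 25 and 50 in the labels is not given in the sources used here. Gene counts summed to 25586301 in wt, the shallowest library, and to 33119710 in knockdown 50-5, the deepest. Midn, the targeted gene, had an RPKM (read density, scaled to exon length and to library size) of 50.8 and 59.6 in the scr libraries, 60.5 in wt and 20.3 to 22.1 in the knockdown libraries. Its log2 fold change was -1.38 (edgeR FDR 0.00777, or 0.0525 without knockdown 50-2). Of 8 hepatocyte markers, Alb, Afp, Apoe and Trf were all above an RPKM of 20 in every library, while Serpina1a had 0 counts throughout and Apoa1 stayed below an RPKM of 1.6.

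The promoters of the 3 genes that encode the class I molecule itself are shown first, because they hold the boxes through which these genes are known to be driven together. The RefSeq promoter table (GRCm38.p6) held 8 of the 10 genes, all with the transcription start of the deposited tables. It had no entry for Tap2 and Nlrc5. The stretches below are the 250 bases before the start, on the strand of the gene. H2-K1 is at chr17:34000348-34000597 (minus strand), H2-D1 at chr17:35262844-35263093 (plus strand) and B2m at chr2:122147437-122147686 (plus strand). Capitals mark, from left to right in H2-K1 and H2-D1, the core of the kB palindrome (GGGATTCCC), the core of the interferon-stimulated response element (TTTCNNTT), the X2 box core (TGACG) and the Y box (ATTGG). A second Y box of H2-D1, read on the other strand closer to the start, was left in lower case. In B2m they mark the interferon element, read on the other strand, then the X2 box core and the Y box.

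H2-K1: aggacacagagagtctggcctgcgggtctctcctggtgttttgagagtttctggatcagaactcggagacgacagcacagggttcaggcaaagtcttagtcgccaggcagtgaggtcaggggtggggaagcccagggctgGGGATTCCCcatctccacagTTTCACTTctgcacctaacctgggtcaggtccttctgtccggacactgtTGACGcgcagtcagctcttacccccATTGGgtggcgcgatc

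H2-D1: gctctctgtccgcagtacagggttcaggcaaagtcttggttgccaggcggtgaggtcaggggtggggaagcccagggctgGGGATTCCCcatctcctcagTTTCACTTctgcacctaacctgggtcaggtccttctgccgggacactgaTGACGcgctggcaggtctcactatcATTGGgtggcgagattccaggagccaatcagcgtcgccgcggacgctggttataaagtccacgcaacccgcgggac

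B2m: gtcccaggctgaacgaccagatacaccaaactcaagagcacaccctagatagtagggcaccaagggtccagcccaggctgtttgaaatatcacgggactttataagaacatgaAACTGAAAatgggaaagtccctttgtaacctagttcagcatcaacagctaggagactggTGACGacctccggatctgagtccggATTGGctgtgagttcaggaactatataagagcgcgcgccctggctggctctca

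In all 3 stretches, 20 bases separated the X2 box core from the Y box on the same strand. This spacing was read from these genes and then searched in all promoters, on both strands. It was found in 30 of 32851 promoters (0.0913%), which belonged to 26 genes. H2-K1, H2-D1, B2m and the non-classical heavy chain H2-M3 were among them. Alone, the X2 box core was found in 17.8% of all promoters, the Y box in 33.8%, the interferon element core in 21.3% and the kB core in 0.301%. The best local alignment of the H2-K1 and H2-D1 stretches covered 177 columns, of which 161 (91.0%) were identical. A match of letters is a description and not a measured binding site.

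Psmb9 and Tap1 start from opposite strands of 1 short interval of chromosome 17, chr17:34187331-34187555, which is shown on the strand of Tap1 because the levels of both genes are set side by side below. Capitals mark a Y box read on the other strand, nearest to Psmb9, and an X2 box core.

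Psmb9-Tap1: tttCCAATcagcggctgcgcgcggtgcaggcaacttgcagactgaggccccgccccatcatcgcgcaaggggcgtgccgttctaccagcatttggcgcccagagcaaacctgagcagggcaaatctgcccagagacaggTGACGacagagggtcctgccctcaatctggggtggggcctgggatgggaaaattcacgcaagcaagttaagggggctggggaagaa

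In these 225 bases the letters of the kB core, of the interferon element core and of the GAS element (TTCNNNGAA) were not found on either strand. Psmb8 had a GAS match between 97 and 89 bases before its start, a motif held by 7.02% of all promoters. Tapbp had 2 Y box matches, and Psmb10 had no match to any of the 5 motifs.

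On the per-length RPKM scale the 10 genes spanned more than 3 orders of magnitude, and the upper and lower ends of the order were the same in all 6 libraries. B2m was highest at 554.6 to 652.8, H2-D1 came next at 39.4 to 108, and H2-K1 was lowest at 0.0409 to 0.359. Tapbp (13.5 to 40.3), Psmb10 (10.2 to 25.4) and Psmb8 (8.83 to 18.3) lay between. Tapbp was the highest of these in every library but wt, and Psmb10 and Psmb8 exchanged places within the knockdown libraries. Nlrc5 (4.24 to 9.12) and Tap1 (3.63 to 9.19) did the same. Below them, Tap2 (1.94 to 3.66) was above Psmb9 (1.27 to 6.33) in the 5 scr and knockdown libraries and below it in wt.

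**Figure D1:**
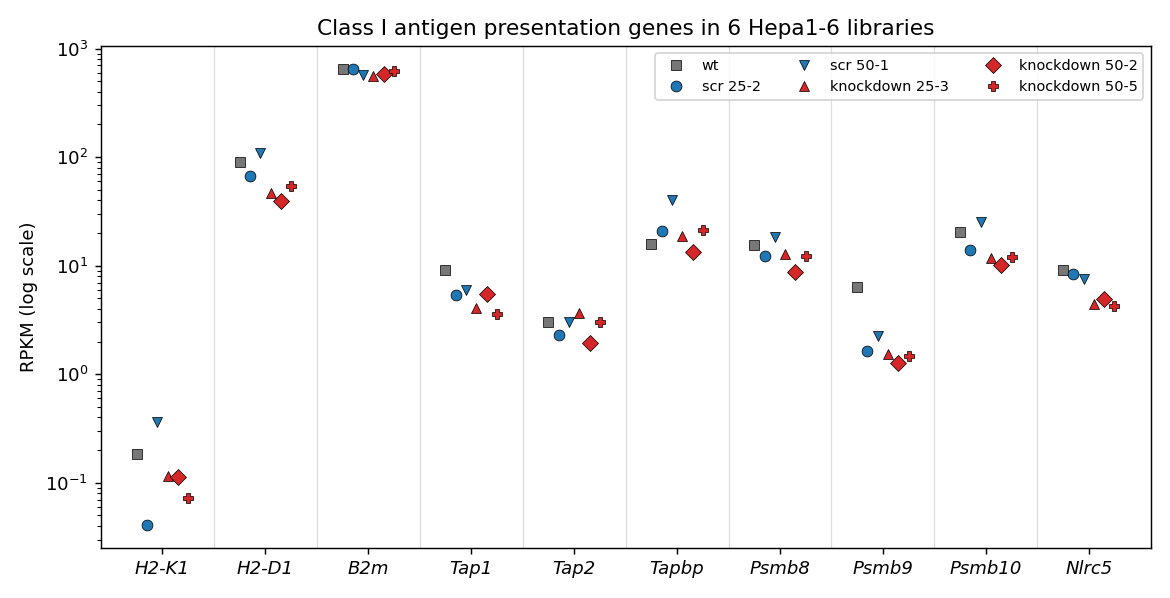
RPKM on a log axis of the 10 class I genes in each of the 6 libraries, 1 symbol per library (grey wt, blue scr, red knockdown). B2m lies between 554.6 and 652.8 in all libraries and H2-K1 below 0.4, while the 3 knockdown symbols of Nlrc5 lie below its scr and wt symbols.

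Nlrc5, the transactivator of class I genes (chromosome 8 of mm10, 94472763 to 94527272), was the one member called, which required a change of 1.5-fold or more in either direction with an FDR below 0.05. The FDR is the p-value of the edgeR quasi-likelihood test adjusted over all genes tested, and SE is the standard error of the log2 fold change. The RPKM of Nlrc5 was 8.38 in scr 25-2, 7.5 in scr 50-1 and 9.12 in wt, against 4.41, 4.95 and 4.24 in knockdown 25-3, 50-2 and 50-5. All 3 knockdown libraries were below both scr libraries and wt. The scr mean was 7.94 ± 0.622 (SD, n = 2) and the knockdown mean 4.53 ± 0.372 (SD, n = 3), a log2 fold change of -0.82 (SE 0.136, edgeR FDR 0.0231).

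The FDR of Nlrc5 was 0.0991, 0.0870 and 0.0828 without knockdown 25-3, 50-2 and 50-5, with log2 fold changes of -0.81, -0.88 and -0.78. The 39 tested genes within 5 Mb of Nlrc5 had a median log2 fold change of -0.33, in the same direction, and the part of this region in the fall of Nlrc5 was not tested. Nor can fewer cells with a transcript be told apart from less of it per cell in such bulk libraries. Psmb10 also lies on chromosome 8 (105935728 to 105938392), and the 90 tested genes around it had a median of -0.31. Around the other 8 members the medians lay between -0.070 and 0.034.

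H2-D1 (chromosome 17, 35263094 to 35267497) was the classical heavy chain with the higher level. Its RPKM in wt was 90.7, between 66.9 in scr 25-2 and 108 in scr 50-1. It had 46.8, 39.4 and 53.7 in knockdown 25-3, 50-2 and 50-5. The knockdown libraries were again all below both scr libraries and wt, and the scr libraries differed from each other by 1.62-fold. The log2 fold change was -0.92 (SE 0.245, 95% interval -1.53 to -0.31) and the FDR 0.0672 in edgeR, so H2-D1 was not called. Without scr 25-2 it was called, at a log2 fold change of -1.21 (FDR 0.0152), and without scr 50-1 the value was -0.53 (FDR 0.142). With wt added to the controls, H2-D1 was called at -0.93 (FDR 0.0283).

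H2-K1 (chromosome 17, 33996012 to 34000347), the other classical heavy chain, had 8 counts in wt, 2 in scr 25-2, 17 in scr 50-1 and 6, 6 and 4 in the knockdown libraries. No library reached the RPKM of 1 that the test required, so H2-K1 was not tested, and a difference was not detectable at this depth. H2-D1 had between 2211 and 5357 counts in the same libraries. Of 2008 windows of 50 bases in the protein-coding H2-K1 transcripts of GENCODE, 93.1% occurred in no transcript of another gene, against 86.1% of 2275 windows for H2-D1. The length of the sequenced reads is not given in the sources used here.

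The nearest listed genes on the sides of H2-K1 were Ring1, a Polycomb subunit gene with an RPKM of 2.32 to 4.45, and AA388235, at 0.776 to 1.63. Beyond AA388235 lay H2-K2, a further class I gene, at 0.335 to 0.928, and Vps52, an endosomal sorting protein gene, at 5.88 to 7.09. These were looked up after the values of H2-K1 were seen.

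The light chain B2m (chromosome 2, 122147687 to 122153082) had an RPKM of 652.8 and 575.8 in the scr libraries, 647.9 in wt and 554.6, 584.6 and 621.1 in the knockdown libraries. The groups overlapped. The log2 fold change was -0.079 (SE 0.133, edgeR FDR 0.728), and the 95% interval of the fold, 0.753 to 1.19, does not include the 1.5-fold threshold. H2-D1 amounted to 10.2% and 18.8% of B2m by RPKM in the scr libraries, 14.0% in wt and 8.43%, 6.74% and 8.64% in the knockdown libraries.

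The TAP transporter has 2 subunits, which lie close to each other on chromosome 17, Tap1 at 34187556 to 34197225 and Tap2 at 34204479 to 34216321. Tap1 had an RPKM of 5.37 and 5.93 in the scr libraries, 9.19 in wt and 4.11, 5.48 and 3.63 in the knockdown libraries. Tap2 had 2.32 and 3.02 in the scr libraries, 3.00 in wt and 3.66, 1.94 and 3.06 in the knockdown libraries. For both genes the knockdown and scr libraries overlapped. The log2 fold changes were -0.37 (95% interval -0.94 to 0.20, FDR 0.321) for Tap1 and 0.10 (-0.73 to 0.94, FDR 0.866) for Tap2 in edgeR. The sign of the Tap2 value turned without scr 25-2 (-0.061) and without knockdown 25-3 (-0.11).

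Tapbp (chromosome 17, 33919478 to 33929290), the loading chaperone, had 20.8 in scr 25-2, 40.3 in scr 50-1 and 15.9 in wt on the RPKM scale, and 18.6, 13.5 and 21.1 in the knockdown libraries. Only scr 50-1 stood above the rest. Of its windows of 50 bases, 77.6% occurred in no transcript of another gene. The log2 fold change was -0.79 (SE 0.326, edgeR FDR 0.165), and it was -0.24 without scr 50-1 and -1.18 (FDR 0.0325) without scr 25-2.

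Each of the 3 immunoproteasome subunits had a lower mean in the knockdown libraries, and none was called. Psmb10 had an RPKM of 14.1 and 25.4 in the scr libraries, 20.5 in wt and 11.8, 10.2 and 12.0 in the knockdown libraries, with no overlap. Its log2 fold change was -0.81 (SE 0.276, edgeR FDR 0.113), or -1.16 (FDR 0.0160) without scr 25-2 and -0.33 without scr 50-1. Psmb9 had 1.64 and 2.26 in the scr libraries, 6.33 in wt and 1.53, 1.27 and 1.46 in the knockdown libraries, also without overlap, and a log2 fold change of -0.47 (95% interval -1.30 to 0.36, FDR 0.384), from 33 to 52 counts in the compared libraries. It was -0.22 without scr 50-1 and -1.25 with wt among the controls. Psmb8 had 12.2 and 18.3 in the scr libraries, 15.6 in wt and 12.8, 8.83 and 12.3 in the knockdown libraries. These overlapped, and the log2 fold change was -0.44 (95% interval -1.11 to 0.23, FDR 0.316), or -0.12 without scr 50-1 and -0.69 without scr 25-2.

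The constitutive catalytic subunits had positive log2 fold changes of 0.20 for Psmb5, 0.23 for Psmb6 and 0.20 for Psmb7, none of them called (edgeR FDR 0.531, 0.303 and 0.349). Each immunoproteasome subunit was therefore also set against the subunit it replaces, within each library. Psmb8 was 67.1% and 79.6% of Psmb5 by RPKM in the scr libraries, 72.7% in wt and 54.7%, 41.4% and 46.1% in the knockdown libraries. Psmb9 was 1.88% and 2.15% of Psmb6 in the scr libraries, 5.93% in wt and 1.32%, 1.18% and 1.23% in the knockdown libraries. Psmb10 was 9.36% and 15.0% of Psmb7 in the scr libraries, 11.5% in wt and 6.43%, 5.89% and 6.08% in the knockdown libraries.

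In all 3 pairs every knockdown library was below every scr library and wt. The share of other gene pairs that separate in this way was not computed. Singly, Psmb9 and Psmb10 already lay wholly below both scr libraries, and Psmb6 and Psmb7 wholly above. Of all genes tested, 24.5% lay wholly below and 25.7% wholly above. For Psmb8 over Psmb5 the mean was 73.3% ± 8.83 in scr (SD, n = 2) and 47.4% ± 6.70 in knockdown (SD, n = 3). The same means were 2.02% ± 0.195 and 1.24% ± 0.0728 for Psmb9 over Psmb6, and 12.2% ± 4.02 and 6.13% ± 0.275 for Psmb10 over Psmb7. An exact two-sided permutation test over the 3 knockdown and 2 scr libraries gave p = 0.2 for each pair, the smallest p this design allows, and 0.25 after Benjamini-Hochberg adjustment over the 5 ratios tested. The other two were H2-D1 over B2m (p = 0.2, exact permutation test) and Tap2 over Tap1 (p = 0.6, exact permutation test). The ratios were formed after the values were seen.

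**Figure D2:**
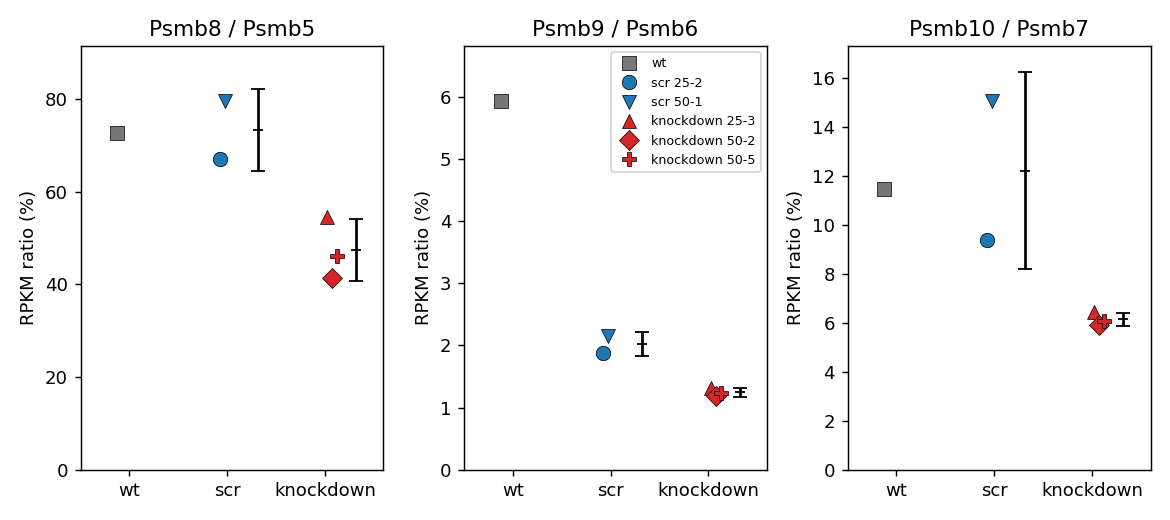
RPKM of each immunoproteasome subunit as a percentage of the constitutive subunit it replaces, by group, with 1 symbol per library and the mean and SD as bars beside the scr (n = 2) and knockdown (n = 3) libraries. The knockdown symbols lie below all others in each panel, at 41.4% to 54.7% for Psmb8 over Psmb5, and wt stands apart at 5.93% for Psmb9 over Psmb6.

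Of the 9 members tested, 1 was called lower (Nlrc5) and 0 higher, where 5.23% of the 11577 genes tested were called lower, 5.40% higher and 10.6% in either direction. The number of genes called in either direction, 1230, depended on the libraries: it was 2273 without scr 25-2, and 259, 131 and 346 without knockdown 25-3, 50-2 and 50-5. In 4 of the 9 (H2-D1, Psmb9, Psmb10 and Nlrc5) all knockdown libraries lay below both scr libraries, and in 0 above, where 24.5% of all genes tested lay wholly below and 25.7% wholly above. The median log2 fold change was -0.47 over the 9 members and -0.0097 over all genes tested. The scr 50-1 library was the highest of all 6 for H2-K1, H2-D1, Tapbp, Psmb8 and Psmb10. For H2-D1, Tapbp, Psmb8 and Psmb10 it exceeded scr 25-2 by 1.5-fold to 1.94-fold. H2-K1 rests on 17 counts in scr 50-1. How often scr 50-1 was the highest over all genes was not computed.

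**Figure D3:**
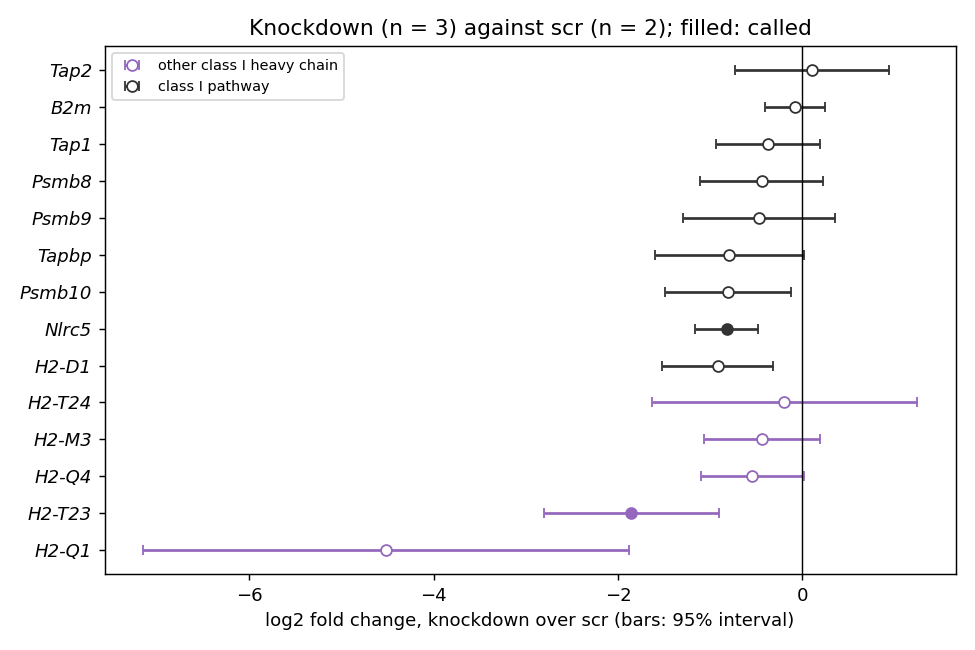
Log2 fold change of knockdown (n = 3) over scr (n = 2) with 95% intervals for the 9 members tested (black) and 5 other class I heavy chain genes (purple), where filled symbols passed both thresholds. Nlrc5 at -0.82 and H2-T23 at -1.86 are filled, and B2m and Tap2 lie nearest to 0.

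The other class I heavy chains were then examined, a family of non-classical molecules that hold few kinds of peptide or serve as ligands of natural killer cell receptors. Of 14 listed, 5 were tested, 1 was called lower and 0 higher, beside the 5.23% of all genes called lower, and the median log2 fold change was -0.54. In 4 of the 5 all knockdown libraries lay below both scr libraries, as they did in 24.5% of all genes tested. H2-T23, which encodes the Qa-1 molecule that engages the inhibitory receptor NKG2A, was the one called. Its RPKM stood at 13.2 in scr 25-2, 32.97 in scr 50-1 and 16.5 in wt, against 6.08, 7.21 and 5.97 in the knockdown libraries, with no overlap. The log2 fold change was -1.86 (SE 0.384, edgeR FDR 0.0388), and the call was lost without any one of the knockdown libraries (FDR 0.119 to 0.136) and with limma on log2 RPKM (FDR 0.0678 and 0.0524 with pseudocounts of 0.1 and 1), while the value stayed between -2.36 and -1.05 with each library left out.

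H2-Q1 had the widest spread of the 5 tested. It had 13.6 in scr 25-2, 110 in scr 50-1 and 47.2 in wt, and 4.01, 0.654 and 3.47 in the knockdown libraries. The knockdown libraries lay below all others. It was not called, with an FDR of 0.0523 at a log2 fold change of -4.51 (SE 1.07). H2-Q4 and H2-M3 were also wholly below both scr libraries, at log2 fold changes of -0.54 and -0.44, and were not called (edgeR FDR 0.169 and 0.297). H2-T24 overlapped. Windows of 50 bases that occur in no transcript of another gene made up 70.2% for H2-T23, 77.7% for H2-Q1 and 60.8% for H2-Q4. How reads from the shared sequence were assigned is not given in the sources used here, so the values of these genes are uncertain.

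**Figure D4:**
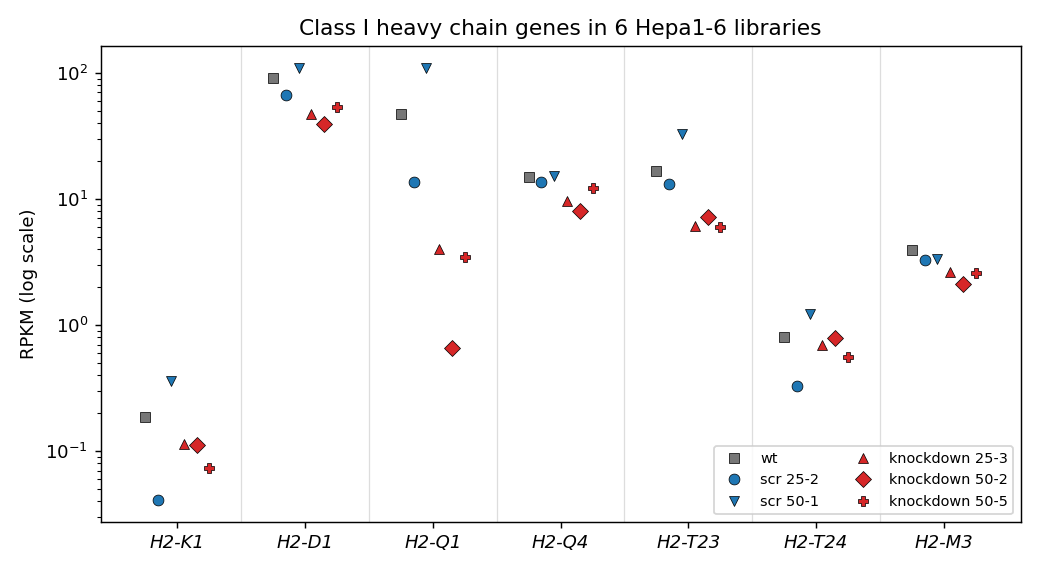
RPKM on a log axis of 7 class I heavy chain genes in each library, 1 symbol per library. The 3 knockdown symbols lie below both scr symbols for H2-D1, H2-Q1, H2-Q4, H2-T23 and H2-M3, H2-Q1 spans 0.654 to 110, and H2-K1 stays below 0.4.

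Among 8 class I-like proteins, 7 were tested, 1 was called higher and 1 lower, beside the 10.6% of all genes called in either direction. Fcgrt, the neonatal Fc receptor that recycles IgG and albumin and also pairs with B2m, fell from an RPKM of 25.7 and 21.6 in the scr libraries to 16.0, 14.3 and 12.3 in the knockdown libraries, with 27.1 in wt. Its log2 fold change was -0.75 (SE 0.170, edgeR FDR 0.0473), a call that was lost in 9 of 13 alternatives, among them the removal of scr 25-2 (FDR 0.0903) and of knockdown 25-3, 50-2 and 50-5 (FDR 0.107, 0.170 and 0.123). Cd1d1, which presents lipids to natural killer T cells, was the one called higher. Its RPKM was 0.0922 and 0.0571 in the scr libraries, 0.333 in wt and 1.10, 1.07 and 1.84 in the knockdown libraries, or 5 and 3 counts in scr against 64, 64 and 112 in knockdown. Cd1d1 passed the filter on low values only through the knockdown libraries, where it was high, so its call is no support for a difference and its levels are given as a description.

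Of 8 genes of peptide loading and trimming in the endoplasmic reticulum, none was called, beside 10.6% of all genes called in either direction, and 2 (Tapbpl and Erap1) had all knockdown libraries below both scr libraries, close to the 24.5% of all genes. Erap1, the aminopeptidase that trims peptides for class I molecules, had an RPKM of 16.2 and 26.0 in the scr libraries, 22.1 in wt and 11.9, 11.4 and 13.4 in the knockdown libraries (log2 fold change -0.80, edgeR FDR 0.0725). The other 8 proteasome genes listed, Psmb5, Psmb6 and Psmb7 with the activators and the assembly factor Pomp, also had none called, beside the same 10.6%. In 4 of them all knockdown libraries lay above both scr libraries (25.7% of all genes) and in 0 below (24.5% of all genes). Psme1 and Psme2, the subunits of the interferon-inducible activator PA28, had log2 fold changes of -0.41 and -0.22 (FDR 0.255 and 0.651). The values were 0.46 and 0.28 (FDR 0.0587 and 0.211) for Psme3 and Psme4, which encode other proteasome activators.

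Of 20 regulators of class I transcription, 1 was called higher and 0 lower, where 5.40% of all genes were called higher, and their log2 fold changes had a median of -0.10. Jak1, a kinase of the interferon receptors, rose from an RPKM of 12.2 and 13.8 in the scr libraries and 12.9 in wt to 29.7, 25.5 and 34.8 in the knockdown libraries, a log2 fold change of 1.20 (SE 0.182, edgeR FDR 0.0186). Its FDR was 0.0542 to 0.0745 with any one knockdown library left out. Irf1, which activates class I genes after interferon, had a log2 fold change of -0.36 and was not called (FDR 0.366). In 7 of the 20 all knockdown libraries lay above both scr libraries and in 5 below, where the shares of all genes were 25.7% and 24.5%. Of those not called, Ifngr2, a chain of the interferon gamma receptor, had the highest value at 0.83 (FDR 0.169) and Stat2, which carries the type I interferon signal, the lowest at -1.05 (FDR 0.0796).

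Class II genes were low. Of 7 listed, 4 were tested and 1 was called, beside 5.40% of all genes called higher. It was H2-DMb1, a subunit of the class II loading chaperone, which had an RPKM of 0.106 and 0 in the scr libraries, 0.209 in wt and 4.19, 1.64 and 2.64 in the knockdown libraries. These were 4 and 0 counts in the scr libraries and 170, 68 and 112 in the knockdown libraries. H2-DMb1 too passed the filter only through the knockdown libraries, so its call is no support for a difference. The summed RPKM of 9 immune cell markers was 4.51 and 5.07 in the scr libraries, 4.41 in wt and 9.20, 10.2 and 14.2 in the knockdown libraries. Of these markers Cd3e had 0 counts in every library, Adgre1 and Itgax had an RPKM below 0.05, and 2 of the 9 passed the RPKM filter, Cd68 and Csf1r, neither called. The defining marker Ptprc had an RPKM of at most 0.160. The sum was higher in the knockdown libraries, and its part in the class I values was not tested. The summed RPKM of the hepatocyte markers was 3980 and 4368 in the scr libraries, 6349 in wt and 2422, 1880 and 1539 in the knockdown libraries. Alb was 1877 and 2804 in the scr libraries and 336, 62.7 and 20.9 in the knockdown libraries (FDR 0.0712), which was not called. The part of that difference in the class I values was not tested either.

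Parental cells were compared with scr cells to show how far the controls lie from each other. With the single wt library assumed to vary like the replicated groups, 0% of 11647 genes (0 genes, with 899 at an unadjusted p under 0.05) were called by edgeR, and 19 and 4 were called without scr 25-2 and scr 50-1. No other tool was run for this comparison. No member was called. Psmb9 and Tap1, which share the interval printed above, had the highest wt values relative to scr among the 9 members, with log2 fold changes of 1.67 (SE 0.4, FDR 0.612) and 0.68 (SE 0.299, FDR 0.659). Both were higher in wt than in any of the other 5 libraries, and so was Nlrc5, which does not lie at this interval. The part of the shared interval in the wt values, which come from 1 library, was not tested. Tapbp was lower in wt at -0.96 (FDR 0.668), and the other members lay between 0.011 and 0.18.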

How the data were processed

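RNA of 6 Hepa1-6 libraries was sequenced in single-read mode. Alignment to mm10 was done by the authors with Tophat2, and HTSeq gave the raw read counts per RefSeq gene that they deposited. Whether the counting used strand is not given in the sources used here. Their deposited RPKM values had been made from these counts with TMM library sizes. Each of the library columns was matched to its sample by name, and 0 were left unmatched.

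Counts were tested with edgeR 4.0.16 in R 4.3.3 (quasi-likelihood test, TMM, Benjamini-Hochberg adjustment over all genes tested) after removal of genes that nowhere exceeded an RPKM of 1 in the compared libraries. All 3 libraries labelled with the midnolin shRNA vector (KO in their titles, knockdown here) and both scr libraries entered; wt entered in a fit of 3 groups. A call required an FDR below 0.05 together with a 1.5-fold change in either direction, the thresholds of the study. Standard errors are the absolute log2 fold change over the square root of F, and 95% intervals use the t distribution with the degrees of freedom of the fit. The common biological coefficient of variation was 0.272. The fit was tested on simulated data. Promoters came from RefSeq (GRCm38.p6) and transcript windows from GENCODE M21. The naming rule took the 10 members, up to 4 called genes from each list of related genes, and a few further genes whatever their result (Psmb5, Psmb6, Psmb7, H2-T23, Psme1, Psme2 and Irf1). Some listed genes are not reported here. Other list genes named in the text were chosen after their values were seen. The members and lists were chosen with earlier results of these data known. Alternatives were DESeq2 1.42.0, limma 3.58.1 on log2 RPKM (pseudocounts 0.1 and 1), other scaling and filters, wt as a control, a term for the 25 or 50 of the labels, and each library left out. Figures were drawn with matplotlib 3.10.9.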

Additional observations from a re-analysis of the deposited data

How the results depend on the processing

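The number of genes called in knockdown against scr was 1230 (625 higher and 605 lower). It ranged from 131 (without knockdown 50-2) to 2273 (without scr 25-2) with each library left out (89 to 1146 higher, 42 to 1127 lower), and was 2322 (1167 and 1155) with DESeq2 and 807 (388 lower) with the 25 or 50 of the labels as a term. H2-D1 passed the thresholds with wt among the controls (-0.93) and with DESeq2 (-0.92). With each library left out, the log2 fold changes ranged from -1.21 to -0.53 for H2-D1, -1.18 to -0.24 for Tapbp, -1.16 to -0.33 for Psmb10, -0.90 to -0.72 for Nlrc5, -0.17 to 0.030 for B2m and -0.11 to 0.33 for Tap2. In wt against scr they ranged from -0.26 to 0.42 for H2-D1, -0.029 to 0.17 for B2m, -0.011 to 0.35 for Tap2, -0.23 to 0.34 for Psmb8 and -0.31 to 0.52 for Psmb10, and the sign turned within each range. The cause of these shifts was not tested. Nlrc5 was called in all 10 alternatives that kept the 3 knockdown libraries. Counts under 20, as in H2-K1, limit what can be said of a gene.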
